A study of Homo sapiens with 6 samples.

Results

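The mitochondrial ribosome is the machine inside the mitochondrion that makes the few proteins encoded by mitochondrial DNA, which are subunits of the respiratory chain complexes. Its ribosomal RNAs are transcribed in the organelle, but its proteins are encoded by nuclear genes named MRPL for the large subunit and MRPS for the small subunit, are made in the cytosol and are imported. Some of these proteins have a counterpart in bacterial ribosomes and others occur only in mitochondrial ribosomes. The nuclear genes are transcribed in most cell types, and their start sites usually carry trimethylation of histone H3 at lysine 4 (H3K4me3), the mark of active promoters.

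The genes described here were the protein coding genes of the GENCODE annotation on GRCh37 whose symbol is MRPL or MRPS followed by a number, which gave 78 of 20163 protein coding genes. By the position of the protein, 51 belong to the large subunit and 27 to the small subunit, with MRPS18A and MRPS30 counted in the large subunit despite their names. By origin, read from the numbering of the proteins, 47 were counted as bacterial type (MRPL1 to MRPL36, MRPS1 to MRPS21, MRPS24, MRPL47 and MRPL55) and the other 31 as specific to mitochondria. MRPS36 is a member by its symbol, although its product is now known as a part of the 2-oxoglutarate dehydrogenase complex. Each gene was represented by the transcription start site (TSS) of its canonical transcript.

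Peaks came from native chromatin immunoprecipitation and sequencing (nChIP-Seq) in U2OS, an established human osteosarcoma cell line, in cells harvested 2 days after reaching confluence. ProMMP2-3xHA cells stably expressed MMP-2, a matrix metalloprotease, in its pro-form from a lentiviral vector and with a triple HA tag at the C-terminus, and WT cells carried no tag. The HA antibody was used in 3 independent replicates of ProMMP2-3xHA cells and in a WT control library, and the H3K4me3 antibody in 1 library of each cell line. The ectopic tagged protein, and not the endogenous one, was therefore mapped, on MNase-cut chromatin without crosslinking. Lists of intervals were analysed for 5 of the 6 samples: HA peaks of each replicate (6401, 9193 and 8933 peaks), H3K4me3 regions of ProMMP2-3xHA (19102) and of WT (17130), and a further list of 7216 HA regions that the authors called on the merged replicates. The WT HA library entered only as the control of the HA calls, and a list of its own was not analysed here. A TSS was scored as having a peak when an interval came within 1 kb of it.

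Nearly every mitochondrial ribosomal protein gene had the active mark. H3K4me3 lay within 1 kb of 78 of 78 TSSs in WT cells and of 77 of 78 (98.7%) in ProMMP2-3xHA cells, against 64.1% and 60.3% of the 20085 other protein coding TSSs. The exception was MRPL28, a protein of the large subunit. Its WT region was only 309 bp wide, no region was called in the ProMMP2-3xHA cells, and the merged HA region beside it overlapped a peak of no replicate. The comparisons of HA peaks below were made on the 77 genes with H3K4me3 in ProMMP2-3xHA cells against the 12118 other TSSs with the mark.

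To show what lies at these start sites, 4 stretches of 150 bases directly upstream of a TSS are printed 5′ to 3′ on the strand of the gene, from GRCh37. MRPL40 and MRPS26 were among the 10 genes with the highest HA enrichment, and MRPS31 and MRPL42 had H3K4me3 but no HA peak in any replicate. Capitals mark matches, on either strand, to CCGGAAG, the core recognised by ETS factors such as NRF-2, and to GGGCGG, the GC box of SP factors.

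MRPL40: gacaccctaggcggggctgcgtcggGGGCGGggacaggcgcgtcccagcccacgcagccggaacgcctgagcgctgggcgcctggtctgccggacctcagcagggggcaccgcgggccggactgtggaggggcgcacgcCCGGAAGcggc (chr22:19419918-19420067, plus strand)
MRPS26: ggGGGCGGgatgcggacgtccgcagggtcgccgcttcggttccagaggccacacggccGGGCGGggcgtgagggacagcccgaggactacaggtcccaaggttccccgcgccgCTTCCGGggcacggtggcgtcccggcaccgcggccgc (chr20:3026548-3026697, plus strand)
MRPS31: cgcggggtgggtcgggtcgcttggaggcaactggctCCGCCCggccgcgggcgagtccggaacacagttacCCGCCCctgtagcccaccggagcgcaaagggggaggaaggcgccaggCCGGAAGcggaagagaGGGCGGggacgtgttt (chr13:41345327-41345476, minus strand)
MRPL42: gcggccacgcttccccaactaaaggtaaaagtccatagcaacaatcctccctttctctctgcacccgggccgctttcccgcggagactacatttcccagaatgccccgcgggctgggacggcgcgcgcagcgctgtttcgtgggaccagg (chr12:93861140-93861289, plus strand)

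The ETS core stood in the upstream stretch of MRPS31 as it did in those of MRPL40 and MRPS26. The printed stretches are examples. Of other highly enriched genes, MRPL18 held the ETS core in its stretch, and MRPS18B, the highest, held none of the motifs. MRPS30 and MRPL50, without an HA peak in any replicate, also held none. MRPL42 held none of the motifs in this stretch, but had the letters AAGATGGC, which are bound by YY1, just inside the transcript. For 8 genes with that motif, 26 bases are printed with the motif in capitals. MRPS18B, MRPL38, MRPS7 and MRPL51 had an HA peak in every replicate, and MRPS30, MRPL46, MRPL42 and MRPL50 had none in any replicate.

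MRPS18B: gcgtacgtcAAGATGGCggcgtctgt (chr6:30585631-30585656, plus strand)
MRPL38: gccggagggAAGATGGCggcgccctg (chr17:73900943-73900968, minus strand)
MRPS7: tggccagccAAGATGGCtgcccccgc (chr17:73257970-73257995, plus strand)
MRPL51: gtaaggcccAAGATGGCtgtcttcgc (chr12:6602391-6602416, minus strand)
MRPS30: tcgcgggcaAAGATGGCggcggccag (chr5:44809053-44809078, plus strand)
MRPL46: ggagaacgaAAGATGGCggcgcccgt (chr15:89010595-89010620, minus strand)
MRPL42: gattgaaacAAGATGGCgggttcgtg (chr12:93861289-93861314, plus strand)
MRPL50: atctcatcgAAGATGGCggcgcgatc (chr9:104160861-104160886, minus strand)

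To examine how many of these genes were occupied by ProMMP2-3xHA, TSSs with a merged HA region were counted. A region was found at 41 of 77 genes (53.2%, exact 95% interval 41.5 to 64.7), beside 49.1% of the other TSSs with H3K4me3, so the share of the family was near the background. Replicate 1 had a peak at 31 genes (40.3%, against 35.5% of other TSSs), replicate 2 at 38 (49.4%, against 47.9%) and replicate 3 at 44 (57.1%, against 49.7%). The family was higher in 3 of 3 replicates, by 4.53 ± 3.01 percentage points (SD, n = 3; exact permutation of the sign, two-sided p = 0.25). With 3 replicates this test cannot go below 0.25, and none of the comparisons over replicates can therefore pass 0.05. A peak in every replicate was found at 25 genes (32.5%, 22.2 to 44.1; other TSSs 28.3%), and no peak in any replicate at another 25 (32.5%; other TSSs 39.2%). The intervals cover counting error only.

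Among the remaining genes, 11 had a peak in 2 replicates and 16 in 1 replicate. The 7 genes with a peak in replicate 2 alone were MRPL41, MRPL44, MRPL55, MRPL57, MRPS2, MRPS17 and MRPS23, and the 9 in replicate 3 alone were MRPL13, MRPL17, MRPL32, MRPL49, MRPS6, MRPS9, MRPS15, MRPS25 and MRPS33. None had its peak in replicate 1 alone, which had the fewest peaks. Of these 16 genes, 6 had a merged region. MRPS6 had the highest such value, a fold enrichment of 8.16 in replicate 3 with no peak in the other two, and it shares its TSS with SLC5A3, which encodes an inositol transporter.

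**Figure D1:**
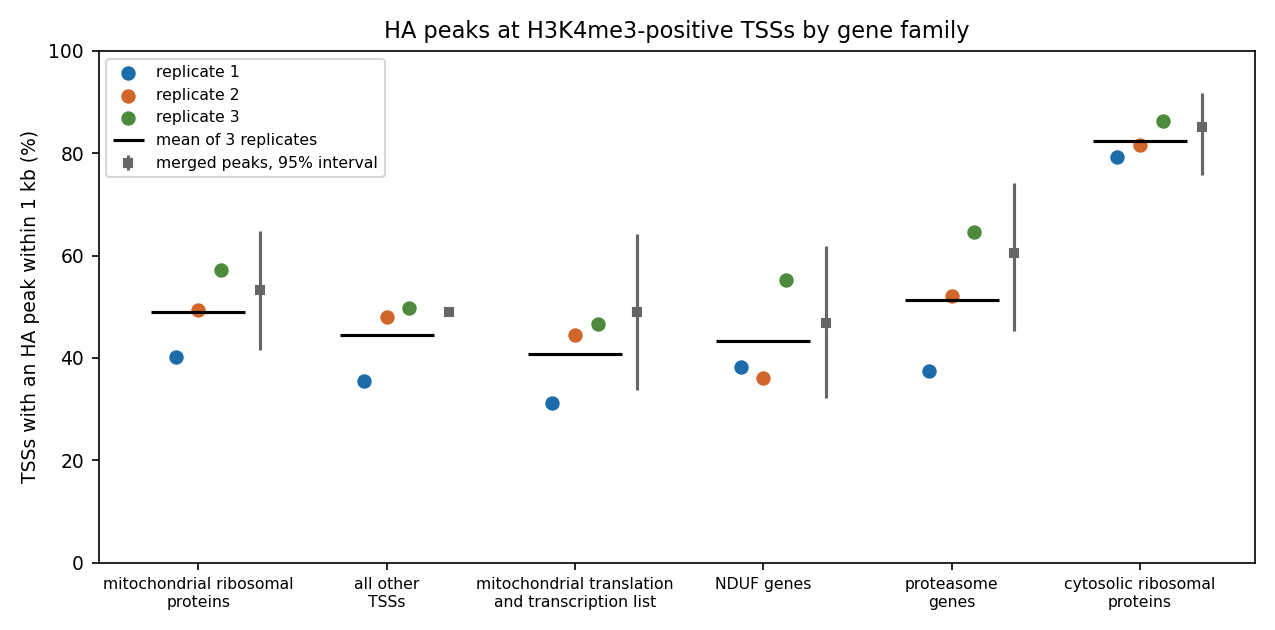
Share of H3K4me3-positive TSSs with an HA peak within 1 kb (y axis, %) for the mitochondrial ribosomal protein genes and 5 comparison groups (x axis). Coloured points are the 3 replicates, black lines their means, and grey squares the merged HA regions with exact 95% intervals. The mitochondrial ribosomal protein genes lie between 40.3% and 57.1% over the replicates, below the cytosolic ribosomal protein genes at 79.3% to 86.2%.

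The cytosolic ribosomal protein genes (RPL or RPS and a number), which build the ribosome of the cytoplasm, stood far above the mitochondrial family. Merged HA regions were found at 74 of 87 of them (85.1%, 75.8 to 91.8). Their shares in replicates 1 to 3 were 79.3%, 81.6% and 86.2%, and the mitochondrial family was lower in 3 of 3 replicates, with a difference of -33.5 ± 5.1 percentage points (SD, n = 3; exact permutation p = 0.25, the smallest possible). The cytosolic genes also had wider H3K4me3 regions, with a median of 1992 bp in ProMMP2-3xHA cells against 1371 bp for the mitochondrial family; the part of this width in the difference was not tested. NDUF genes, which encode subunits and assembly factors of respiratory complex I, had merged regions at 46.8% and proteasome genes at 60.4%. The mitochondrial ribosomal protein genes differed from the NDUF genes by 5.66 ± 6.52 points (exact permutation p = 0.25) and from the proteasome genes by -2.47 ± 5.11 points (SD, n = 3; exact permutation p = 0.75).

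The level of enrichment at occupied genes was also near that of other TSSs. The median MACS2 fold enrichment, the fragment pile-up at the summit over the local control background, was 5.00, 5.49 and 5.32 in replicates 1 to 3 for the mitochondrial family and 4.98, 5.68 and 5.01 for other TSSs with a peak. The log2 ratio of these medians was 0.01 ± 0.07 (SD, n = 3; exact permutation p = 0.75) and did not have the same sign in every replicate. Against the cytosolic ribosomal protein genes, with medians of 5.85, 7.46 and 5.83, the log2 ratio was -0.27 ± 0.16 (lower in 3 of 3 replicates; exact permutation p = 0.25). Recovered from fold enrichment and p-value, the summits at the family stood on a median of 49, 51.5 and 47 fragments, with the lowest at 31, 28 and 27 and the highest at 205, 239 and 165.

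MRPS18B, a protein of the small subunit, had the highest enrichment by a wide margin. Its fold enrichment was 14.8, 19.4 and 13.6 in replicates 1 to 3 (15.9 ± 3.09, SD, n = 3), and its lowest replicate was above the highest replicate of every other gene with a peak in each replicate. Its summits lay 696, 686 and 690 bp upstream of its own TSS. PPP1R10, which encodes a regulatory subunit of protein phosphatase 1, starts 597 bp upstream of MRPS18B on the opposite strand, and the summits were 99, 89 and 93 bp downstream of the PPP1R10 TSS. The peak was therefore nearer to the neighbour than to MRPS18B itself.

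MRPL38, a large subunit protein specific to mitochondria, followed with fold enrichments of 8.37, 10.9 and 8.02 in replicates 1 to 3. Its merged region (chr17:73901213-73901628, 416 bp) lay upstream of the TSS, and no other protein coding TSS was within 1 kb. MRPL48 had 6.21, 8.29 and 10.6, with summits 98, 125 and 118 bp downstream of its TSS, in the coding part of exon 1 in replicates 1 and 3 and in the first intron in replicate 2. MRPL53 had 7.13, 10.3 and 7.13, and its merged region of 998 bp covered 85.1% of its short canonical transcript.

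MRPL18, the counterpart of the bacterial protein that binds 5S rRNA, had 6.09, 9.48 and 7.75, with summits 417, 351 and 404 bp upstream. MRPS5, the counterpart of a bacterial protein at the mRNA entry, had 5.73, 7.53 and 8.85. MRPL40 had 5.81, 8.54 and 7.13, and its summits lay 324, 364 and 321 bp upstream, between its TSS and that of HIRA, a histone chaperone gene 812 bp away. The values of these genes overlapped one another over the replicates.

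Among the high genes MRPL10 varied most relative to its mean, with 7.51, 9.12 and 4.0. MRPS26 varied little, with 5.85, 7.25 and 6.92 and summits 111, 127 and 128 bp downstream in the coding part of exon 1. MRPL4 closed the 10 highest with 5.26, 6.47 and 5.95. At the other end, MRPS36 had 3.73, 5.33 and 4.47, MRPL51 had 3.44, 4.43 and 5.39, and MRPS18C had 4.17, 5.46 and 3.51.

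Apart from MRPS18B the order of these genes was not sharp. The median coefficient of variation over the replicates was 19.4% among the 25 genes, and their mean fold enrichment ranged from 4.38 to 15.9 with a median of 5.66. Ranks were compared as a description across the 25 genes, which share the same 3 libraries. Spearman's rho was 0.83 between replicates 1 and 2, 0.53 between 1 and 3 and 0.55 between 2 and 3. Replicate 2 gave the highest value at 16 of these genes, replicate 3 at 8 and replicate 1 at 1.

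**Figure D2:**
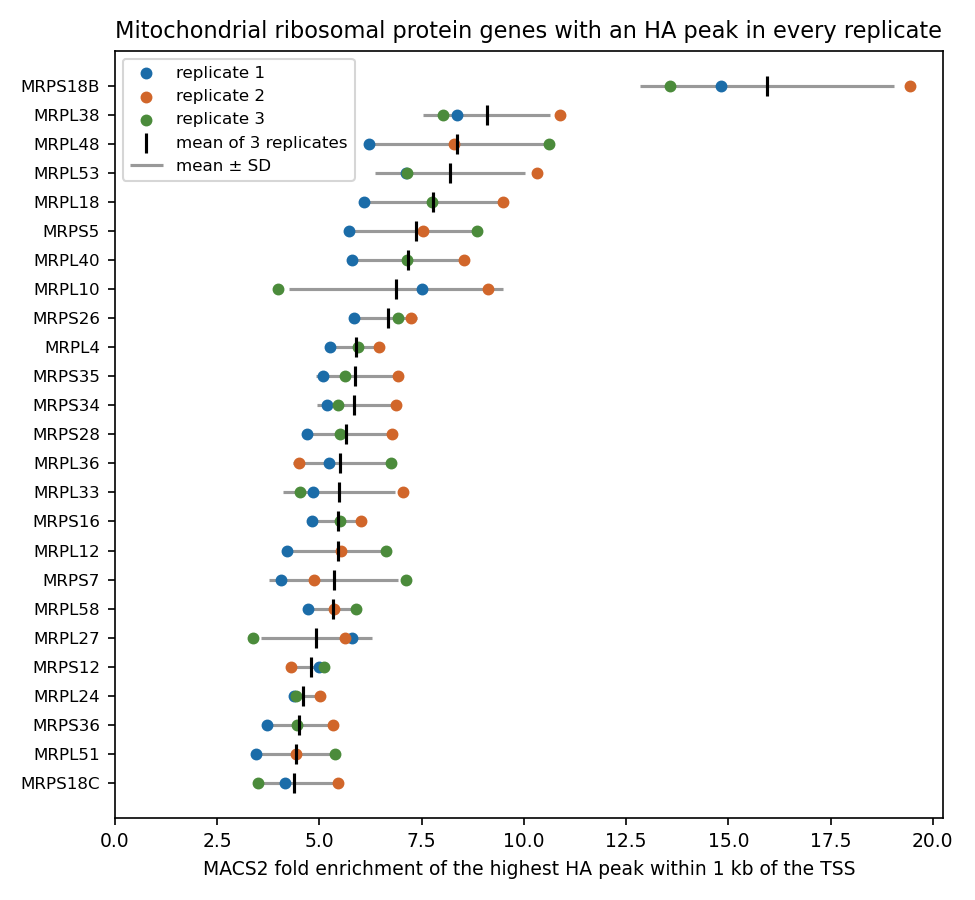
MACS2 fold enrichment of the highest HA peak within 1 kb of the TSS (x axis, linear) for the 25 mitochondrial ribosomal protein genes with a peak in every replicate (y axis, ordered by mean). Points are the replicates, black ticks the means and grey lines the mean ± SD; MRPS18B stands apart with 13.6 to 19.4 and the next gene, MRPL38, has 8.02 to 10.9.

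No merged HA region was found at 36 genes with H3K4me3. Of these, 25 had no peak in any replicate, 10 had a peak in 1 replicate and 1, MRPL1, had peaks in 2 replicates (3.10 in replicate 2 and 4.84 in replicate 3). The 8 with the widest H3K4me3 were MRPL14 (2515 bp), MRPL32 (2435 bp), MRPL50 (1978 bp), MRPL57 (1960 bp), MRPL47 (1927 bp), MRPS2 (1889 bp), MRPS23 (1792 bp) and MRPS30 (1773 bp). MRPL14, MRPL50, MRPL47 and MRPS30 among them had no HA peak in any replicate. This was also common elsewhere. No peak in any replicate was found at 34.3% of other TSSs with H3K4me3 of 1 to 2 kb, and at 20.1% of those from 2 kb. The median distance from the 36 TSSs to the nearest merged region was 60320 bp, against 103695 bp from other H3K4me3 TSSs without a merged region.

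The others without a merged region were MRPL3, MRPL11, MRPL15, MRPL19, MRPL20, MRPL22, MRPL23, MRPL34, MRPL37, MRPL41, MRPL42, MRPL43, MRPL44, MRPL45, MRPL46, MRPL49, MRPL52, MRPS9, MRPS10, MRPS11, MRPS14, MRPS15, MRPS18A, MRPS21, MRPS24, MRPS31 and MRPS33. MRPL46 and MRPS11 start 320 bp apart on opposite strands within the same H3K4me3 region of 1636 bp, and neither had an HA peak. A peak absent from a list was not detectable at the depth and threshold of that call, which does not show that no tagged protein was there.

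The edge of the window had little part in these counts. With MRPL28 included, 42 genes had a merged region within 500 bp, and the number was still 42 at 1 kb and at 2 kb, 44 at 5 kb and 47 at 10 kb.

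Occupancy was set against the width of the H3K4me3 region in ProMMP2-3xHA cells. Of genes with a region under 1 kb, 6 of 14 (42.9%) had a merged HA region, against 25.2% of other TSSs in this class. From 1 to 2 kb it was 29 of 55 (52.7%, others 52.1%), and from 2 kb it was 6 of 8 (75.0%, others 69.9%). The share rose with width among other TSSs, and the family followed the same order with few genes in the outer classes.

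The family was then divided by subunit and by origin. Merged regions were found at 25 of 50 large subunit genes (50%) and 16 of 27 small subunit genes (59.3%). The large subunit was lower in 3 of 3 replicates, with a difference of -10.2 ± 4.15 percentage points (SD, n = 3, exact permutation p = 0.25, the smallest possible). As in the other comparisons of gene groups, the same genes were counted in every replicate, and the SD leaves out counting error. Peaks in every replicate were found at 28% of large and 40.7% of small subunit genes. By the numbering, bacterial-type genes had merged regions at 54.3% and mitochondria-specific genes at 51.6%.

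To locate the peaks, the highest HA summit within 500 bp of each TSS was taken, and the share lying downstream of the TSS was counted. In replicates 1 to 3 this was 13 of 31 genes (41.9%), 19 of 36 (52.8%) and 19 of 43 (44.2%), against 58.6%, 59.1% and 62.7% of other TSSs. The share departed from an even 50% by -3.70 ± 5.72 points (SD, n = 3, exact permutation p = 0.50). The departure was -8.06, 2.78 and -5.81 points in replicates 1 to 3, and so not of the same sign in each. With 3 replicates the test cannot decide whether either side was preferred. The downstream share was lower than at other TSSs in 3 of 3 replicates, with a difference of -13.8 ± 6.56 points (exact permutation p = 0.25, the smallest possible). At cytosolic ribosomal protein genes 92.6%, 90% and 81.1% of summits were downstream, which gave a difference of -41.6 ± 7.88 points for the mitochondrial family (SD, n = 3; exact permutation p = 0.25). Within 250 bp of the TSS the family turned to the downstream side, at 15.6 points above an even share, beside 26.5 points for other TSSs.

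The downstream share was then set against shared promoters. Another protein coding TSS on the opposite strand lay within 1 kb of 27 of 78 mitochondrial ribosomal protein TSSs (34.6%), against 9.15% of all other TSSs. Among TSSs with H3K4me3 it was 35.1% against 14.3%, beside 29.8% of NDUF genes and 28.9% of the listed mitochondrial translation and transcription genes. At members with such a neighbour, 35.7%, 33.3% and 35.3% of summits were downstream, against 49.8%, 49.4% and 52.1% at other TSSs with a neighbour. The difference was -15.7 ± 1.39 points (n = 3, exact permutation p = 0.25). Both genes of a pair could count among the other TSSs, and a summit downstream of a gene could then be upstream of its partner. This draws their share towards 50%, so it is not an independent background. At members with no other TSS within 1 kb the shares were 50%, 65.2% and 50%, against 60.9%, 61.1% and 65.2% (difference -7.35 ± 10.1 points, n = 3; exact permutation p = 0.50). This last difference was -10.9, 4.08 and -15.2 points in replicates 1 to 3, and so not of the same sign in each. The part of shared promoters in the lower downstream share of the family was not tested.

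At 6 of 14, 7 of 14 and 7 of 17 members with an opposite-strand neighbour and a peak, the highest summit was nearer to the neighbour's TSS (42.9%, 50% and 41.2%). At other TSSs with such a neighbour this was 49.4%, 49.9% and 49.6%. Both genes of a pair could be counted there, which holds that share near 50%. It is therefore not an independent background, and the pairs that follow are examples. MRPS7 and GGA3, an adaptor of vesicle transport, start 273 bp apart, and the summits lay 403, 361 and 404 bp upstream of MRPS7, which is 130, 88 and 131 bp downstream of GGA3. MRPS12 and SARS2, the mitochondrial seryl-tRNA synthetase gene, start 181 bp apart, with summits 115, 315 and 112 bp into SARS2. MRPS18C and HELQ, a DNA helicase gene, start 235 bp apart, with summits 161, 266 and 93 bp into HELQ. MRPL27 was an example of the opposite case, which was at least as frequent, with summits 122, 128 and 420 bp downstream of its own TSS, away from EME1. For such pairs a peak within 1 kb cannot be told apart as belonging to either gene.

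A further split was made after its values were seen. Summits were downstream at 27.8%, 47.4% and 32.0% of bacterial-type genes and at 61.5%, 58.8% and 61.1% of mitochondria-specific genes in replicates 1 to 3. The difference was -24.8 ± 11.8 points (SD, n = 3, exact permutation p = 0.25). Because the split was chosen from these values, this p-value does not test it. Without shared promoters the difference was -38.1, -3.03 and -50 points in replicates 1 to 3 (-30.4 ± 24.4), over fewer genes.

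**Figure D3:**
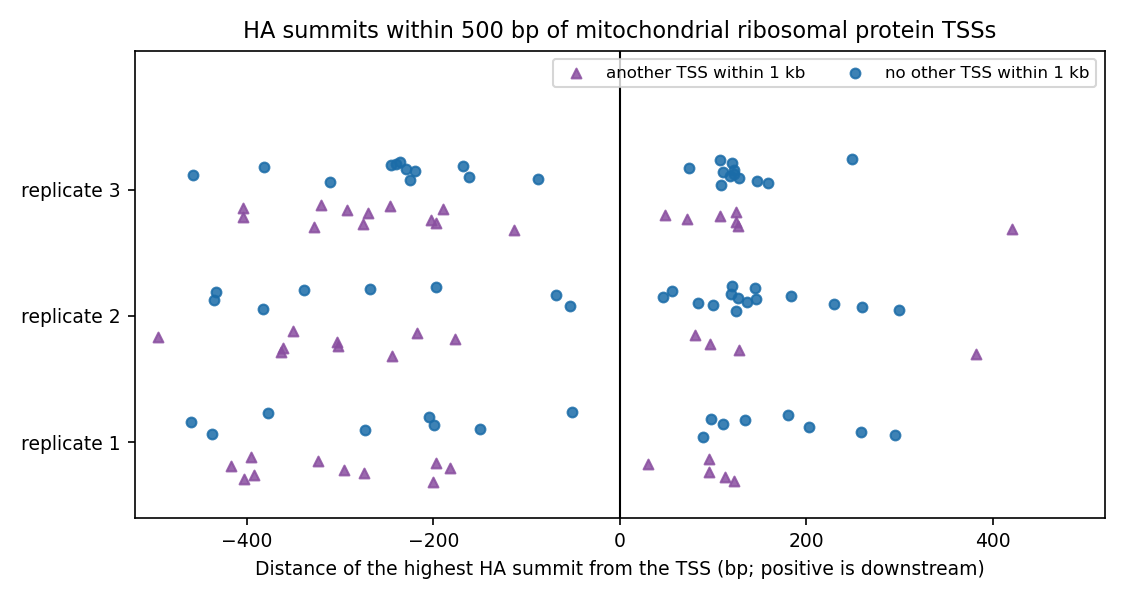
Distance of the highest HA summit from the TSS (x axis, bp, positive is downstream) for mitochondrial ribosomal protein genes with a summit within 500 bp, by replicate (y axis, with vertical scatter for legibility). Triangles are genes with another TSS within 1 kb and circles genes without; 13 of 31, 19 of 36 and 19 of 43 points lie downstream in replicates 1 to 3.

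The merged HA regions at the family were short. Their median width was 416 bp against 495.5 bp at other TSSs, and their centre was upstream of the TSS at 24 genes, in a coding exon at 10, in the first intron at 6 and in the 5′ UTR at 1. The centre was thus downstream of the TSS at 41.5% of the family, against 46.5% of other TSSs. Widths over 2 kb were found at 3 of 41 genes (7.32%, other TSSs 7.94%). The widest, 14251 bp at MRPS34 (chr16:1818958-1833208), also held the start sites of EME2, NME3, NUBP2 and SPSB3 and covered the whole of MRPS34. A region of 4192 bp held the start of IMMT, which encodes the MICOS protein mitofilin, and ended 116 bp upstream of the MRPL35 TSS. Another of 2613 bp held the start of PPP1R10 and ended 51 bp upstream of the MRPS18B TSS. MRPL36 had 1754 bp and MRPL18 1227 bp, the latter together with TCP1, a chaperonin gene. MRPS34, MRPL53 and MRPL36 were the genes with at least 25% of their canonical transcript under merged HA, at 100%, 85.1% and 26.8%. This was 7.32% of the 41 genes (1.54 to 19.9), beside 4.81% of other TSSs with a merged region. The median canonical transcript was 6241 bp at these 41 genes and 25804 bp at those other TSSs. The part of transcript length in these shares was not tested.

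H3K4me3 widths at the family were close to those at other TSSs. The median was 1371 bp in ProMMP2-3xHA cells (other TSSs 1433 bp) and 1797 bp in WT cells (1874 bp). Regions were narrower in ProMMP2-3xHA than in WT at 76 of 77 genes (98.7%), as they were at 93.1% of other TSSs, and the median ratio of the widths was 0.78 in both sets. With 1 library in each cell line, cell line and library cannot be told apart. The ratio was 0.77 at members with a merged HA region and 0.79 at members without, and at other TSSs it was 0.81 with and 0.75 without.

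The width ratio was lowest at MRPL36, with 737 bp in ProMMP2-3xHA cells and 3355 bp in WT cells (0.22). MRPL54, with 598 and 2480 bp (0.24), and MRPL10, with 512 and 1417 bp (0.36), followed. At these 3 genes the WT region ran across the TSS, and the ProMMP2-3xHA region lay only on the transcript side. The MRPL54 WT region also covered the start of APBA3, 990 bp upstream. These ratios therefore compare intervals of unlike extent. MRPS25 was the only gene with a wider region in ProMMP2-3xHA cells, 1684 against 1612 bp, and MRPS18B (4003 and 4127 bp) and MRPL32 (2435 and 2537 bp) were next. A merged HA region was present at each of the 3 genes with the lowest ratio, and also at MRPS25 and MRPS18B.

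**Figure D4:**
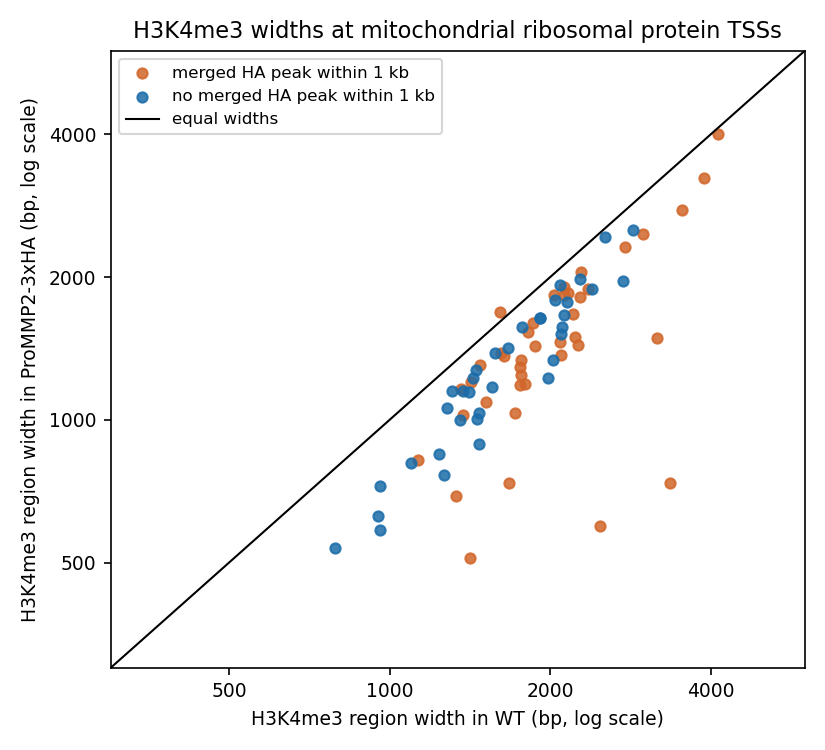
Width of the widest H3K4me3 region within 1 kb of each of 77 mitochondrial ribosomal protein TSSs in WT cells (x axis, bp, log scale) and ProMMP2-3xHA cells (y axis, bp, log scale), coloured by the presence of a merged HA region. The line marks equal widths; 76 of 77 points lie below it.

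The promoters printed above were taken up again by counting motifs from 250 bases before to 50 bases after each TSS, on both strands. The ETS core CCGGAAG was found at 31 of 77 genes (40.3%, 29.2 to 52.1) against 20.6% of other TSSs with H3K4me3 and 14% of all promoters. The YY1 letters AAGATGGC were found at 22 of 77 (28.6%, 18.8 to 40) against 5.89% and 4.01%. The GC box GGGCGG was less frequent than elsewhere, at 59.7% against 77.0% (60.9% of all promoters), beside a median GC content of 61.0% against 68.0% over the 500 bp around the TSS. The NRF-1 letters GCGCATGCG were rare, at 5.19% against 4.03% (2.69% of all promoters). No motif contains another, but the ETS core and the YY1 letters can overlap by the letters AAG.

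The place of the YY1 letters was like that at other TSSs. At 17 of 22 genes (77.3%) they began 1 to 50 bases into the transcript, against 66.9% of the 714 other H3K4me3 TSSs with the motif, and the median first base, counted from 1 at the TSS, was 14 against 11. At 18 genes (81.8%) they read on the strand of the gene, against 75.8%. The motif contains the letters ATG, and at 14 of the 22 genes (63.6%) this was the annotated start codon of the canonical transcript, against 40.8% of the other TSSs with the motif. The match is a description of letters, and a factor's binding was not measured.

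Motifs were then set against HA. The YY1 letters stood at 8 of 41 genes with a merged HA region (19.5%, 8.82 to 34.9) and at 14 of 36 without (38.9%, 23.1 to 56.5), with intervals that overlap. At other TSSs the shares were 6.19% and 5.60%. The ETS core stood at 19 of 41 genes with HA (46.3%) and 12 of 36 without (33.3%), and at 23.1% and 18.1% of other TSSs.

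**Figure D5:**
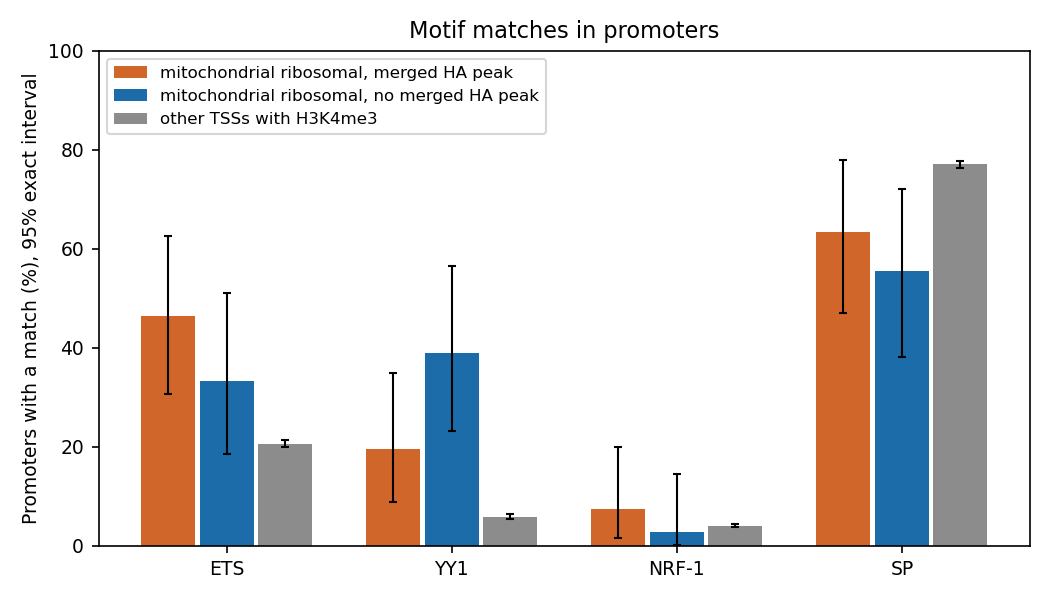
Share of promoters (y axis, %) with a match to each of 4 motifs (x axis) among mitochondrial ribosomal protein genes with and without a merged HA region and other TSSs with H3K4me3. Bars are shares and lines exact 95% intervals; the ETS and YY1 bars of both mitochondrial ribosomal groups lie above the grey bars of other TSSs, and the SP bars lie below.

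Genes that work with the mitochondrial ribosome were counted beside it, from a list of 45 genes for mitoribosomal proteins with other symbols, assembly, rRNA modification, translation and mitochondrial transcription. All 45 had H3K4me3 in ProMMP2-3xHA cells, and 22 (48.9%) had a merged HA region. The family exceeded this list in 3 of 3 replicates, by 8.18 ± 2.91 points (SD, n = 3; exact permutation p = 0.25, the smallest possible). Among listed genes with a peak in every replicate, the highest mean enrichments were at MTG2, a GTPase of ribosome assembly, with 5.63, 8.58 and 8.14 in replicates 1 to 3, and at MTRF1L, a release factor, with 6.19, 8.30 and 5.99. MTG1, another assembly GTPase, had 4.17, 7.44 and 7.11. TFAM, which packages mitochondrial DNA and acts in its transcription, had 6.84, 6.54 and 4.37, and LRPPRC, an RNA stabiliser, had 4.71, 6.34 and 6.22.

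No merged region was found at 23 genes of the list. They include the elongation factors TUFM, TSFM and GFM1, the recycling factor GFM2, the initiation factor MTIF3, the release factor MTRF1, and OXA1L and SLIRP. They also include POLRMT, the mitochondrial RNA polymerase, with TFB2M and MTERF1, and the mitoribosomal proteins DAP3, PTCD3, CHCHD1 and AURKAIP1. The rest were the assembly genes ERAL1, FASTKD2, GTPBP10, MALSU1, MPV17L2 and MTERF4, and METTL15 and NSUN4, which modify the ribosomal RNA. Of the mitoribosomal proteins with other symbols only GADD45GIP1 had a merged region, with 3.81 in replicate 2 and 6.21 in replicate 3. Some genes with fewer peaks reached high values, with TSFM at 7.93 in replicate 2 alone, MTFMT at 7.36 in replicate 3 alone, and RBFA at 4.84 in replicate 1 and 7.32 in replicate 3.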

How the data were processed

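The deposited lists were made by the authors from paired reads, which were trimmed with Trim Galore 0.6.0, aligned to hg19 (GRCh37) with Bowtie2 2.3.5.1, filtered for mapping quality with SAMtools 1.9 and freed of duplicates with Picard. Peaks were called with MACS2 3.0.0a6 at a q-value of 0.05 against a control. The authors' HA replicate lists hold, per peak, the interval, a score, the fold enrichment over control (a ratio), the -log10 p-value and -log10 q-value, and the summit; their merged HA and H3K4me3 lists combine narrow and broad calls and give intervals alone. Deposited lists state no read depth. From fold enrichments and p-values, the depth ratio of HA library to control was recovered as 3.57, 2.81 and 3.00 in replicates 1 to 3. The recovered control background was 1.33, 1.55 and 1.41, so fold enrichments rest on a low control signal. Fragments were recovered at 31 of 31, 38 of 38 and 41 of 44 member summits.

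TSSs were canonical GENCODE starts (19540 genes) or gene 5′ ends (623 genes). Per TSS, the widest region and the highest peak within 1 kb were taken. Shares were given exact (Clopper-Pearson) 95% intervals. Differences were compared over the 3 replicates by exact permutation of the sign, with Python 3.11.15 and scipy 1.17.1. The window search and the fragment recovery were tested on simulated data. Filtering on mapping quality can leave TSSs in duplicated sequence without peaks. Genes were named by rule: the 10 highest and 3 lowest by mean fold enrichment among those with a peak in every replicate, all without a merged HA region (H3K4me3 widths for 8), those lacking H3K4me3, the 5 widest HA regions, those with a peak in 1 replicate, the 3 largest and 3 smallest width ratios, and in the pathway list those without a merged region and the 5 highest. Pairs with neighbours, MRPS6, MRPL1, TSFM, MTFMT, RBFA and GADD45GIP1 were named after their values were seen. The members and lists were chosen with earlier results of these data known. Windows, TSS definitions, thresholds and left-out replicates were varied.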

Additional observations from a re-analysis of the deposited data

How the results depend on the processing

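The share of genes with a merged HA region stayed inside its interval with windows of 500 bp and 2 kb, other TSS definitions, the WT H3K4me3 list, no H3K4me3 requirement and without shared promoters. It was 26% where the region had to overlap the TSS (other TSSs 27.2%) and 32.5% for merged regions that overlap a peak of every replicate (29.1%). The share of genes with the ETS motif fell to 13.0% for the longer ACCGGAAG (other TSSs 4.78%). Summits downstream of the TSS, at -3.70 points from an even share, changed sign to 15.6 within 250 bp and to 5.07 without genes that have another TSS within 1 kb. Without each replicate in turn, that value ranged from -6.94 to -1.52 and the share minus other TSSs from 3.08 to 6.08 points. The log2 ratio of fold enrichment ranged from -0.021 to 0.046, with the negative value without replicate 3. The share with a peak in every remaining replicate was 39.0%, 39.0% and 33.8% without replicates 1, 2 and 3. At other TSSs it was 38.3%, 31.2% and 31.1%. This share cannot fall when a replicate is left out, because a peak is then needed in fewer lists. In all, 38 of 44 alternatives kept their direction or interval, H3K4me3 widths and HA widths among them. No test over 3 replicates can pass 0.05. Depth limits a missing peak to not detected. No paired analysis was possible because the groups share fewer than 2 replicate numbers.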
